A study of Mus musculus with 36 samples.

Results

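The miR-181 family was followed through 6 mature microRNAs (miRNAs) of the mouse: mmu-miR-181a-5p, mmu-miR-181b-5p, mmu-miR-181c-5p, mmu-miR-181d-5p, mmu-miR-181a-1-3p and mmu-miR-181a-2-3p, named below without the species prefix. They were taken by name from a count table of 1966 mature miRNAs, and all 6 passed the filter on low counts in both tissues. The table covers 36 small RNA libraries, 18 from liver and 18 from epididymal white adipose tissue (eWAT), made from wild-type C57BL/6 males of generation F1 aged 24 weeks. Chow was fed up to week 6 and a set diet for 18 weeks after that. Each tissue holds the groups HFLF, HF and LF with 6 libraries each, whose diet tags are HFLFD, HFD and LFD. The treatment text of every library names LFD, so it cannot be told from the labels if a group is named for what a mouse ate or for what its father ate. The labels also do not state that the libraries of a group are separate mice, or that equal numbers in both tissues mark one mouse, and the p-values below therefore cover only the spread among these libraries.

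A miRNA hairpin is cut into a 5p and a 3p arm, and the arm that stays in an Argonaute protein guides it to messenger RNAs, mainly by pairing of the seed, bases 2 to 8 from its 5′ end. In most hairpins one arm is kept far more often than the other. Members of the miR-181 family are best known in mice from thymocytes, where miR-181a tunes the sensitivity of the T cell receptor. In mice they have also been linked to insulin signalling, in hepatocytes and in white adipose tissue.

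The sequences below show which members can be told apart by sequencing and which share a target-pairing seed. Capitals mark the seed, and all 6 come from RefSeq (GRCm38.p6).
miR-181a-5p: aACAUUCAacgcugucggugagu
miR-181b-5p: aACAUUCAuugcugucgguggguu
miR-181c-5p: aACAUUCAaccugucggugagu
miR-181d-5p: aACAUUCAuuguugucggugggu
miR-181a-1-3p: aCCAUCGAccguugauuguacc
miR-181a-2-3p: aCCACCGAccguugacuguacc
The 4 5p arms share the seed ACAUUCA, which no other of the 1679 mature miRNAs in the RefSeq table carries. Counted from 1 at the 5′ end, miR-181a-5p differs from miR-181b-5p by A9U, C10U and A21G besides its end, and miR-181b-5p differs from miR-181d-5p by C12U besides its end. The edit distance between miR-181a-5p and miR-181c-5p is 1. The 3p arms of the miR-181a hairpins differ by U5C and U16C, and the first of these lies in the seed. miR-181a-2-3p is therefore the only mature miRNA in the table with its seed, while miR-181a-1-3p shares its seed with miR-181c-3p, from which it differs by U16G and U19G.

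These arms come from 6 hairpins in 3 pairs. Mir181a-1 (chr1:137966455-137966541, plus strand, GRCm38) lies 97 bases before Mir181b-1 in an exon of the long noncoding RNA A430106G13Rik on the same strand, and also in an intron of Gm4258 on the same strand and of Gm26936 on the opposite strand. Mir181a-2 (chr2:38852735-38852810, plus strand) lies 1019 bases before Mir181b-2 in an intron of the nuclear receptor gene Nr6a1, which is transcribed from the opposite strand. Mir181c (chr8:84178873-84178961, minus strand) and Mir181d are 85 bases apart in an intron of Nanos3 on the same strand. Both miR-181a hairpins give the identical miR-181a-5p, and only their 3p arms tell the loci apart. The hairpins are shown because the results on the 3p arms rest on this, with the 5p arm and the 3p arm in capitals.
Mir181a-1: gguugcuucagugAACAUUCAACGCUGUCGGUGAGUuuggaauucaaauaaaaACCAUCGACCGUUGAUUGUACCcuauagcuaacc
Mir181a-2: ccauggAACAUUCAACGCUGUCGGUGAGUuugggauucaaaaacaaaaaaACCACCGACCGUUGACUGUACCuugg
The count table gives a line per hairpin. The 2 lines of miR-181a-5p differed by 0.0045% in total and those of miR-181b-5p by 5.68%, so each pair holds nearly the same reads, and the higher line of each was used.

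Total counts ran from 7866583 to 18832842 per library. The tissues carried their markers: the summed level of 4 hepatocyte miRNAs was 599300 to 980900 in liver and 433 to 2312 in eWAT, in CPM (counts scaled to a common library total) further scaled by the trimmed mean of M-values (TMM). TMM adjusts library totals on the assumption that most miRNAs do not change. The list of 2 adipocyte and smooth muscle miRNAs reached 11490 to 26300 in liver and 78590 to 163600 in eWAT on that scale. Liver libraries LF replicate 4 and HF replicate 6 are not among the 16 libraries of the authors' deposited liver table of log2 values. They had a count for 316 and 368 miRNAs, against 540 to 633 miRNAs in the other liver libraries. In eWAT, LF replicates 1 and 4 carried 11570 and 15650 TMM-scaled CPM of 8 epithelial miRNAs, against 51.8 to 227 in the other 16 eWAT libraries. Results that rest on these 4 libraries are given with and without them.

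miR-181a-5p was the main member in both tissues, with miR-181b-5p next. In liver it ranked 72nd among 1056 miRNAs with a count, between miR-185-5p and miR-200b-3p, and in eWAT 42nd among 1314, between miR-151-5p and miR-22-3p. Levels of miR-181a-5p in liver, as lowest, median and highest of 6 libraries in TMM-scaled CPM, were 372, 576 and 668 in HFLF, 369, 520 and 611 in HF, and 344, 548 and 604 in LF. In eWAT they were 1755, 2054 and 2225 in HFLF, 1913, 2002 and 2148 in HF, and 1479, 1857 and 2254 in LF. Every eWAT library was thus above every liver library, and the 3 groups overlapped within each tissue.

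miR-181b-5p, the second 5p arm, followed the same pattern. Its liver levels were 59.1, 109 and 127 in HFLF, 64.7, 94.7 and 117 in HF, and 78.4, 105 and 136 in LF. In eWAT it had 356, 384 and 436 in HFLF, 365, 379 and 418 in HF, and 255, 354 and 445 in LF. The tissues did not overlap, and the groups did.

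The chromosome 8 pair was scarce. miR-181c-5p had 7.75, 16.8 and 24.7 TMM-scaled CPM in liver HFLF, 2.81, 11.1 and 16.1 in liver HF, and 0, 9.52 and 13.2 in liver LF. In eWAT it had 17.7, 20.6 and 22.5 in HFLF, 18.6, 20.9 and 23.9 in HF, and 15.1, 23.2 and 102.9 in LF. The top value belongs to eWAT LF replicate 1, and the other 5 LF libraries ended at 30.2. miR-181d-5p had 7.14, 12.4 and 18.9 in liver HFLF, 0, 9.39 and 12.1 in liver HF, and 6.13, 10.5 and 27.6 in liver LF. In eWAT it had 12.2, 15.8 and 25.1 in HFLF, 13.3, 17.7 and 23.1 in HF, and 13.5, 18.1 and 85.3 in LF, where the highest library was again LF replicate 1. The zeros fall in the libraries set apart above, miR-181c-5p in liver LF replicate 4 and miR-181d-5p in liver HF replicate 6.

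The 3p arms of the miR-181a loci were also scarce, but unlike each other. miR-181a-1-3p had 2.84, 4.71 and 6.98 in liver HFLF, 2.76, 5.36 and 7.43 in liver HF, and 0, 4.64 and 10.2 in liver LF. In eWAT it had 13.4, 18.1 and 22.8 in HFLF, 13.8, 16.7 and 24.6 in HF, and 14.0, 15.4 and 16.1 in LF, all above every liver library. miR-181a-2-3p had 17.8, 26.2 and 34.6 in liver HFLF, 26.1, 35.4 and 42.2 in liver HF, and 14.4, 27.2 and 44.8 in liver LF. In eWAT it had 13.3, 20.5 and 35.1 in HFLF, 11.2, 20.5 and 27.6 in HF, and 14.7, 21.9 and 36.7 in LF, so here the tissues overlapped.

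**Figure D1:**
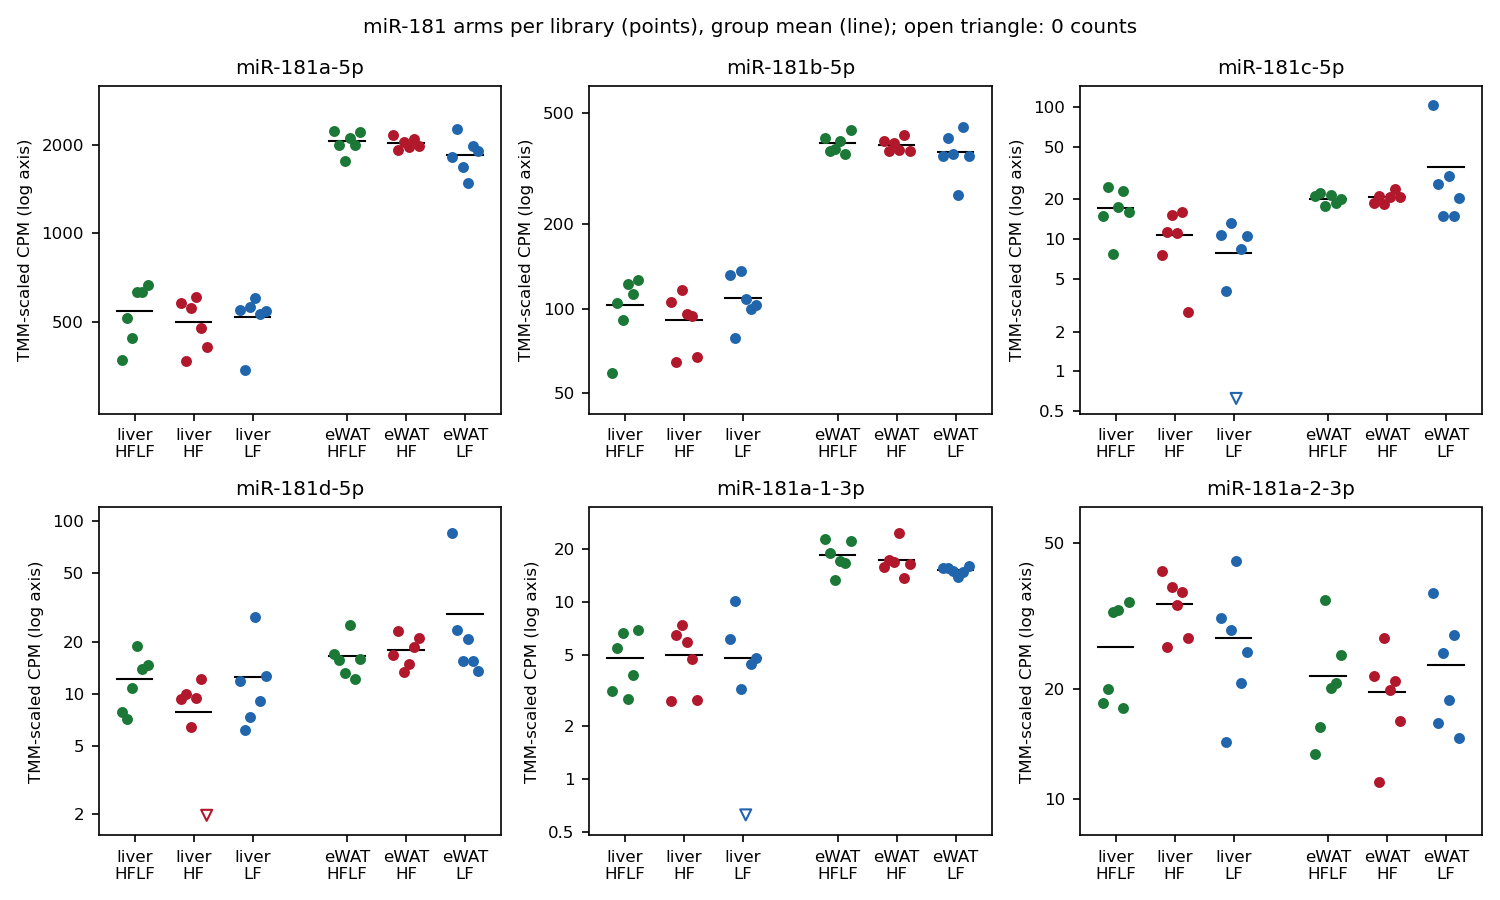
TMM-scaled CPM (log axis) of each member in every library, by tissue and group; points are libraries, lines are group means of 6, and open triangles are libraries with 0 counts. miR-181a-5p sits between 344 and 668 in liver and between 1479 and 2254 in eWAT, whereas miR-181a-2-3p overlaps between the tissues and miR-181c-5p and miR-181d-5p are set high in 1 eWAT LF library at 102.9 and 85.3.

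By mean level the order in liver was miR-181a-5p (523 ± 99.1), miR-181b-5p (101 ± 22.6), miR-181a-2-3p (29.2 ± 8.68), miR-181c-5p (12.0 ± 6.50), miR-181d-5p (10.8 ± 5.83) and miR-181a-1-3p (4.90 ± 2.32), in TMM-scaled CPM (SD, n = 18 libraries). miR-181c-5p and miR-181d-5p differed by less than their spread. In eWAT the order was miR-181a-5p (1973 ± 200), miR-181b-5p (378 ± 42.1), miR-181c-5p (25.3 ± 19.7), miR-181a-2-3p (21.5 ± 7.03), miR-181d-5p (21.1 ± 16.5) and miR-181a-1-3p (17.1 ± 3.18). There the last 4 were not separated beyond their spread. The mature sequences are 22 to 24 bases long, so no correction for length was made.

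Between the tissues, miR-181a-5p, miR-181b-5p and miR-181a-1-3p were lower in liver than in eWAT in all 3 groups. With TMM scaling over all 36 libraries, the log2 difference of miR-181a-5p, liver minus eWAT, was -1.91 ± 0.15 (SE) in HFLF, -2.01 ± 0.15 in HF and -1.82 ± 0.15 in LF, a level 3.76-fold, 4.02-fold and 3.54-fold lower in liver. Adjusted p-values were 3.61e-13, 9.42e-14 and 1.32e-12 (edgeR's quasi-likelihood test, Benjamini-Hochberg over 681 miRNAs). For miR-181b-5p the differences were -1.92 ± 0.17, -2.08 ± 0.17 and -1.72 ± 0.17. For miR-181a-1-3p they were -1.93 ± 0.46, -1.79 ± 0.45 and -1.65 ± 0.45, with edgeR adjusted p of 0.000605, 0.00121 and 0.00278.

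The other arms differed less evenly between the tissues. miR-181c-5p was lower in liver in LF (-2.15 ± 0.54, edgeR adjusted p = 0.00115), and its differences of -0.22 ± 0.51 in HFLF and -0.96 ± 0.52 in HF missed the threshold (adjusted p = 0.748 and 0.127). miR-181d-5p missed it in each group, at -0.43 ± 0.55, -1.19 ± 0.56 and -1.22 ± 0.56 in HFLF, HF and LF. With TMM miR-181a-2-3p was higher in liver in HF (0.80 ± 0.29, adjusted p = 0.0203), a direction that flipped on plain CPM, and it stood at 0.27 ± 0.29 in HFLF and 0.25 ± 0.29 in LF. Its call in HF was lost without eWAT HF replicate 2 (0.66, adjusted p = 0.0669). Without the 4 libraries set apart, miR-181c-5p in LF stood at -1.05 (adjusted p = 0.00282), and miR-181c-5p in HF (-0.78, adjusted p = 0.0117) and miR-181d-5p in HF (-0.94, 0.00292) and LF (-0.86, 0.0131) were called by the same edgeR test. Members called were 3 lower in HFLF, 1 higher and 3 lower in HF, and 4 lower in LF, of 6 each time. Of all 681 miRNAs, 48.6% were called in HFLF, 49.6% in HF and 47.4% in LF, with 29.4%, 32.0% and 31.4% lower in liver and 19.2%, 17.6% and 16.0% higher. The libraries of the tissues did not overlap for miR-181a-5p, miR-181b-5p and miR-181a-1-3p in any group, for miR-181c-5p in HF and LF and for miR-181d-5p in HF, in each case with liver lower. Of all 681 miRNAs, 25.6% in HFLF, 25.8% in HF and 20.3% in LF were lower in liver without overlap, and 16.3%, 9.4% and 8.22% higher. The median log2 difference of the 6 members was -1.17, -1.49 and -1.69, and that of all miRNAs -0.27, -0.48 and -0.60.

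How far these values move with the scaling was measured on plain CPM, which divides by library totals that miR-122-5p and miR-143-3p dominate. There the median of all miRNAs shifted to -1.39 in HFLF, -1.66 in HF and -1.87 in LF, and calls turned to 58 higher and 368 lower, 53 and 389, and 40 and 422, against 131 and 200, 120 and 218, and 109 and 214 with TMM. On plain CPM miR-181a-5p was lower in liver by log2 values of -3.04, -3.18 and -3.13 in HFLF, HF and LF. miR-181c-5p and miR-181d-5p were called lower in liver in each group, at -1.32 to -3.40 on the same scale. There the direction of miR-181a-2-3p flipped to -0.87 (adjusted p = 0.00613) in HFLF, -0.36 (0.234) in HF and -1.06 (0.000953) in LF by the same edgeR test, so no direction between tissues is given for its level. Relative to the median of all miRNAs it stood higher in liver under both scalings, which was not tested. A change of scaling shifts all miRNAs by nearly the same amount, so the agreement of both scalings is no separate support. With library totals that leave out miR-122-5p and miR-143-3p, calls over all miRNAs were 94 higher and 251 lower in HFLF, 88 and 267 in HF, and 78 and 285 in LF.

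**Figure D2:**
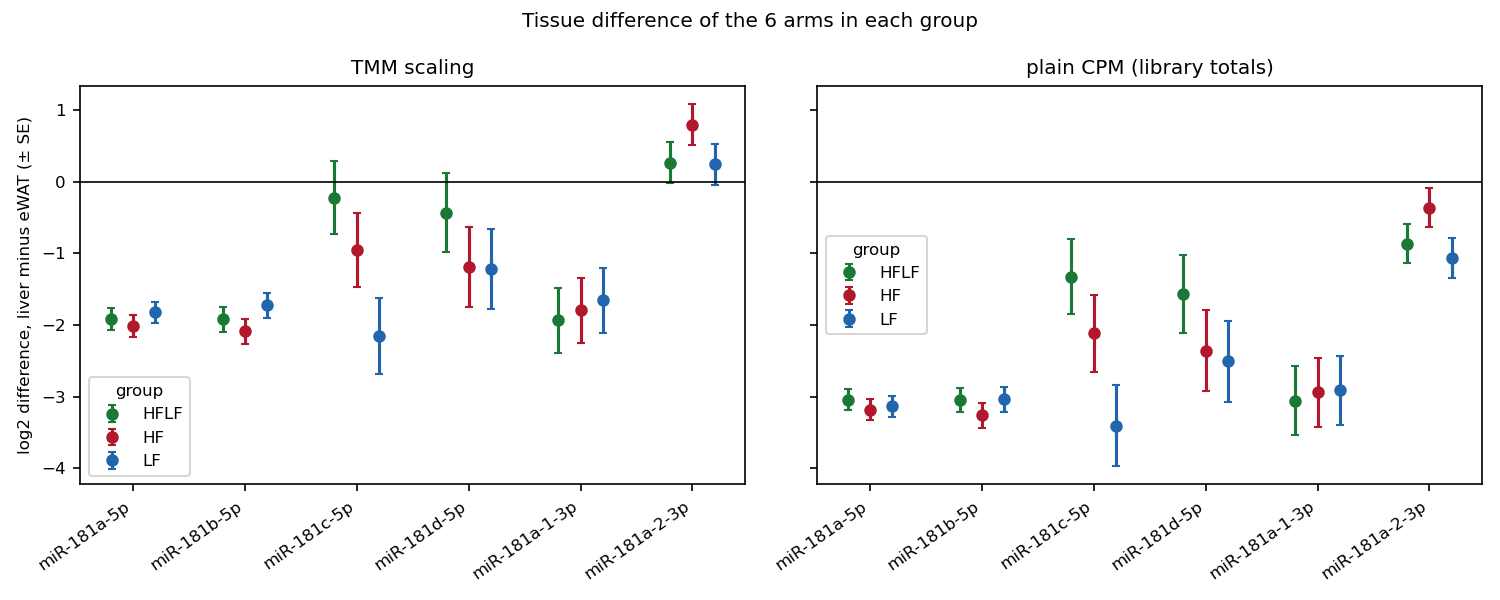
Log2 difference, liver minus eWAT (± SE), of the 6 members in the groups HFLF, HF and LF, with TMM scaling on the left and plain CPM on the right. The first 2 members and miR-181a-1-3p lie near -2 with TMM and near -3 on plain CPM, and miR-181a-2-3p changes side of 0 between the scalings.

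Some markers of other cells also differed between the tissues. The 3 lymphocyte miRNAs of the list (miR-150-5p, miR-342-3p and miR-155-5p) summed to 234 to 395 TMM-scaled CPM in liver and 872 to 2792 in eWAT, and 2, 3 and 3 of 3 were called lower in liver in HFLF, HF and LF, where 29.4%, 32.0% and 31.4% of all miRNAs were. The 2 endothelial miRNAs of the list summed to 3031 to 9871 in liver and 7436 to 18700 in eWAT, and 1 of 2 was called lower in each group. Of the 3 erythroid miRNAs none was called in any group by edgeR. Called lower in liver were also 2 of 3 striated muscle and 1 of 2 fibroblast miRNAs in each group. In HFLF, HF and LF so were 1, 2 and 2 of 3 myeloid and leukocyte miRNAs. For the 7 epididymis and germ cell miRNAs 1, 3 and 2 were called lower, and 2 were called higher in HFLF. Of the 8 epithelial miRNAs 6 were called higher in liver in HFLF and in HF, where 19.2% and 17.6% of all miRNAs were. In LF 4 were called lower, where 31.4% of all miRNAs were. Their sums in LF were 843 to 1992 in liver and 11570 and 15650 in eWAT replicates 1 and 4. The other eWAT LF libraries had 82.7 to 227, below every liver LF library. None of the lymphocyte and endothelial markers was at 0 in any group. The part of these and the other markers in the difference was not tested. In bulk tissue, fewer cells that make a miRNA and less of it per cell cannot be told apart.

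Ratios within a library do not depend on its scaling, and they separated the tissues. The share of miR-181a-1-3p in the counts of both miR-181a 3p arms was lower in liver. In HFLF the share was 7.93, 17.0 and 21.6% in liver (lowest, median, highest of 6) and 27.7, 46.6 and 63.2% in eWAT. In HF it was 6.15, 13.2 and 19.9% in liver and 38.1, 46.1 and 60.7% in eWAT. In neither group did the tissues overlap. In LF the share was 0, 16.3 and 41.4% in liver and 30.0, 40.1 and 52.2% in eWAT, and these overlapped through liver LF replicate 2.

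The mean difference in that share, liver minus eWAT, was -31.2 ± 5.19 percentage points (SE) in HFLF, -34.6 ± 4.28 in HF and -24.1 ± 6.60 in LF. A 2-sided exact permutation test over every assignment of 6 against 6 gave p = 0.00217 in HFLF and in HF, the smallest it can give, and 0.00866 in LF. Adjusted over 9 comparisons these were 0.00974, 0.00974 and 0.0260. The LF call was lost at an adjusted p of 0.0520 when any of liver LF replicates 1, 3, 4, 5 and 6 or eWAT LF replicates 2, 4 and 6 was left out, with differences of -20.7 to -24.3 points, and without the 4 libraries set apart it was -23.1 points (exact permutation test, adjusted p = 0.143). Liver LF replicate 4 had 0 of 219 counts of both arms in miR-181a-1-3p. This allows a share of up to 1.37% by a limit of 3 counts and up to 1.72% by the 95% Wilson interval. Both limits cover counting error only. The same library had a count for only 316 miRNAs, with 0 counts of miR-181c-5p and miR-181c-3p and 65 of miR-181b-2-3p. In liver LF replicate 2 miR-181a-1-3p had 58 of 140 counts (41.4%, 95% Wilson interval 33.6 to 49.7%). Within either tissue no comparison of the groups passed (6 comparisons, adjusted p 0.481 to 0.948).

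**Figure D3:**
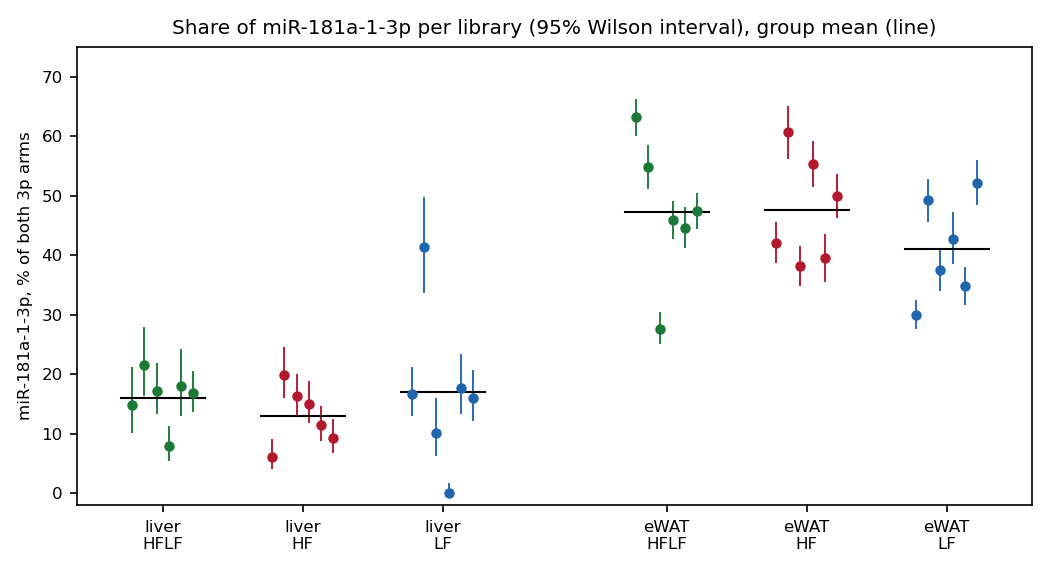
Share of miR-181a-1-3p in the counts of both miR-181a 3p arms, in percent, per library with its 95% Wilson interval for counting error; lines are group means. Liver HFLF and HF libraries end at 21.6% and eWAT libraries begin at 27.7%, while liver LF holds the extremes of 0 and 41.4%.

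Liver also held more 3p arm per 5p arm. Both miR-181a 3p arms together came to 5.81 ± 1.78 counts per 100 counts of miR-181a-5p in liver HFLF (SD, n = 6), 7.88 ± 0.86 in liver HF and 6.22 ± 1.05 in liver LF. In eWAT they came to 1.99 ± 0.42, 1.84 ± 0.32 and 2.12 ± 0.53. The lowest liver library had 3.42 and the highest eWAT library 2.89, so no liver library overlapped with eWAT. The log2 difference of this ratio, liver minus eWAT, was 1.51 ± 0.22 (SE) in HFLF, 2.11 ± 0.12 in HF and 1.58 ± 0.19 in LF, with an adjusted p of 0.00649 in each by the 2-sided exact permutation test.

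Split by locus, miR-181a-2-3p separated the tissues and miR-181a-1-3p overlapped. miR-181a-2-3p came to 4.89 ± 1.52, 6.85 ± 0.73 and 5.16 ± 1.28 per 100 counts of miR-181a-5p in liver HFLF, HF and LF, and to 1.08 ± 0.49, 0.97 ± 0.25 and 1.28 ± 0.49 in eWAT (SD, n = 6). The lowest liver value was 2.81 and the highest eWAT value 2.02. miR-181a-1-3p came to 0.92 ± 0.38, 1.04 ± 0.46 and 1.06 ± 1.00 in liver and to 0.90 ± 0.11, 0.87 ± 0.21 and 0.83 ± 0.09 in eWAT, where the tissues overlapped in each group. The split was made after the values of the pooled ratio were seen and has no test. miR-181a-5p cannot be split by locus, so these are ratios to the 5p arm of both loci.

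**Figure D4:**
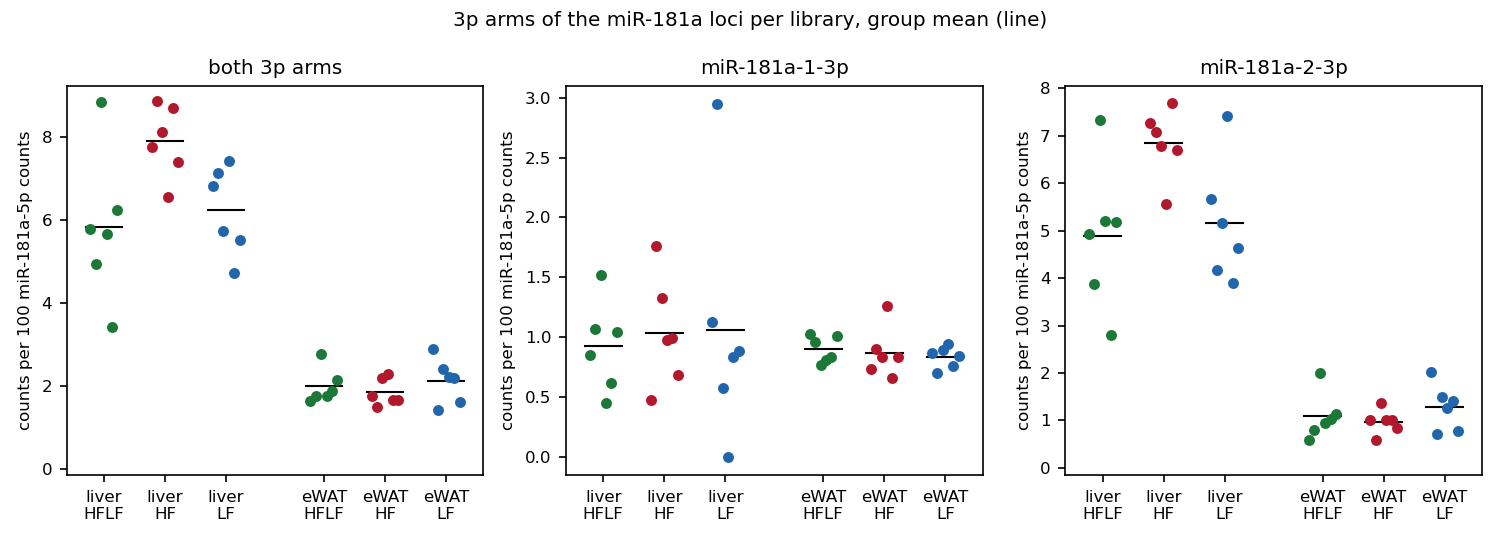
Counts of the miR-181a 3p arms per 100 counts of miR-181a-5p in every library, for both arms (left), miR-181a-1-3p (middle) and miR-181a-2-3p (right); lines are group means of 6. miR-181a-2-3p runs from 2.81 to 7.69 in liver and from 0.58 to 2.02 in eWAT, while miR-181a-1-3p centres near 1 in both tissues.

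Within liver the pooled ratio was higher in HF than in LF and lower in HFLF than in HF. Per 100 counts of miR-181a-5p, the lowest, median and highest libraries had 3.42, 5.72 and 8.84 in HFLF, 6.53, 7.93 and 8.85 in HF, and 4.73, 6.27 and 7.42 in LF, and neighbouring groups overlapped. The log2 difference was 0.35 ± 0.12 (SE) for HF minus LF (adjusted p = 0.0438) and -0.49 ± 0.19 for HFLF minus HF (adjusted p = 0.0468) by 2-sided exact permutation tests. The first was lost, at adjusted p of 0.0701 to 0.0877, when any of liver LF replicates 3, 5 and 6 or HF replicates 1, 2, 3 and 5 was left out. The second was lost, at 0.0623 to 0.0935, when any of the 12 libraries other than HF replicate 4 and HFLF replicate 3 was left out. Without the 4 libraries set apart they were 0.42 (adjusted p = 0.0536) and -0.51 (0.0623, exact permutation test). HFLF minus LF (-0.14 ± 0.21) and the 3 comparisons in eWAT missed the threshold, with adjusted p of 0.520 to 0.693.

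miR-181a-5p and miR-181b-5p made up most of the 5p arms in every group. miR-181a-5p made up 80.5 ± 0.97, 82.2 ± 2.25 and 80.1 ± 1.77% of the 4 5p arms in liver HFLF, HF and LF, and 82.8 ± 0.86, 82.7 ± 0.45 and 81.4 ± 2.36% in eWAT (SD, n = 6). miR-181b-5p made up 15.1 ± 1.26, 14.8 ± 1.27 and 16.8 ± 1.98% in liver and 15.7 ± 0.86, 15.7 ± 0.36 and 15.8 ± 1.53% in eWAT. The chromosome 8 arms took a larger share in liver than in eWAT in HFLF. There miR-181c-5p made up 2.60 ± 0.90% in liver and 0.82 ± 0.07% in eWAT, and miR-181d-5p 1.79 ± 0.42% in liver and 0.66 ± 0.16% in eWAT, without overlap for either arm (2-sided exact permutation test, adjusted p = 0.0390 each over 36 comparisons). With any 1 of these 12 libraries left out, the adjusted p of both was 0.0520 to 0.0779. The differences were then 1.55 to 2.02 points for miR-181c-5p and 1.00 to 1.26 points for miR-181d-5p, still without overlap. At 5 against 6 the smallest p this test can give is larger than at 6 against 6. The loss of the call therefore does not show a weaker difference. None of the 24 comparisons between groups within a tissue passed, and the smallest adjusted p among them was 0.117 (exact permutation test, miR-181c-5p in liver, 2.60 ± 0.90% in HFLF and 1.20 ± 0.66% in LF). Summed, the 4 5p arms came to 677, 611 and 653 TMM-scaled CPM in liver HFLF, HF and LF, and to 2473, 2442 and 2275 in eWAT.

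Within each tissue no member was called between the groups. In liver, edgeR called 0.0% of 478 miRNAs in each of the 3 comparisons, with 16, 14 and 5 at an unadjusted p under 0.05 for HF minus LF, HFLF minus LF and HFLF minus HF, and DESeq2 and limma-voom called 0 as well. For miR-181a-5p the log2 differences were 0.02 ± 0.16 (SE) for HFLF minus HF, -0.01 ± 0.16 for HFLF minus LF and -0.03 ± 0.16 for HF minus LF. For miR-181b-5p they were 0.09 ± 0.18, -0.15 ± 0.18 and -0.24 ± 0.18. The means of both thus differed by less than the spread between libraries. The least certain values belong to the scarce arms, whose standard errors were 0.58 to 0.65 for miR-181c-5p, miR-181d-5p and miR-181a-1-3p.

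In liver the value farthest from 0 was that of miR-181c-5p, 1.18 ± 0.58 for HFLF minus LF (unadjusted p = 0.0564, adjusted p = 0.989, edgeR). It came to 0.50 ± 0.58 for HF minus LF and 0.69 ± 0.58 for HFLF minus HF. Without liver LF replicate 4, which had 0 counts, HFLF minus LF was 0.92 ± 0.38. miR-181a-2-3p, the arm with the higher ratio in HF above, stood at -0.49 ± 0.29 for HFLF minus HF, -0.18 ± 0.29 for HFLF minus LF and 0.31 ± 0.29 for HF minus LF, and was not called.

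In eWAT, edgeR called 0.0% of 638 miRNAs in each comparison, with 49, 98 and 21 at an unadjusted p under 0.05 for HF minus LF, HFLF minus LF and HFLF minus HF. DESeq2 called 16, 31 and 0, none of them a member, and limma-voom 0 in each. miR-181a-5p differed by 0.03 ± 0.09 for HFLF minus HF, 0.14 ± 0.09 for HFLF minus LF and 0.12 ± 0.09 for HF minus LF. miR-181b-5p differed by 0.02 ± 0.11, 0.11 ± 0.11 and 0.08 ± 0.11, and miR-181a-1-3p by 0.09 ± 0.16, 0.28 ± 0.16 and 0.19 ± 0.16. The group means of these 3 arms lay close together, with all 18 libraries of miR-181a-5p between 1479 and 2254 TMM-scaled CPM.

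The fitted values of the chromosome 8 pair in eWAT were negative for HFLF and HF against LF, were not called, and rested on 1 library. miR-181c-5p gave -0.78 ± 0.36 for HFLF minus LF (unadjusted p = 0.0428, adjusted p = 0.291) and -0.75 ± 0.36 for HF minus LF (0.0497 and 0.647) by edgeR. miR-181d-5p gave -0.80 ± 0.38 (0.0469 and 0.308) and -0.69 ± 0.38 (0.0846 and 0.760). Without eWAT LF replicate 1 the 4 values were -0.14, -0.11, -0.16 and -0.05. That library held 102.9 TMM-scaled CPM of miR-181c-5p and 85.3 of miR-181d-5p, and also 578 counts of miR-181c-3p, against 34 to 119 in the other LF libraries. It further carried the highest sum of the 7 epididymis and germ cell miRNAs, 1778 TMM-scaled CPM against 15.9 to 222 in the other LF libraries, and of the 2 fibroblast miRNAs, 8176 against 2975 to 4778. That library was also the highest in eWAT LF for the 3 striated muscle miRNAs (2463 against 777 to 2346) and the 4 hepatocyte miRNAs (2312 against 433 to 1507). It was the lowest in eWAT LF for the lymphocyte (872), myeloid and leukocyte (637), endothelial (7436) and erythroid (1065) miRNAs. For the epithelial list (11570) and the adipocyte and smooth muscle list (101900) it lay within the range of the other LF libraries. The part of these markers in the level of the pair was not tested. eWAT LF replicate 4, with the highest epithelial sum, had 30.2 of miR-181c-5p and 20.7 of miR-181d-5p. Its miR-181c-5p was the next highest in eWAT after LF replicate 1, with 15.1 to 26.1 in the remaining eWAT libraries. Its miR-181d-5p lay within the range of those libraries, 12.2 to 25.1.

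**Figure D5:**
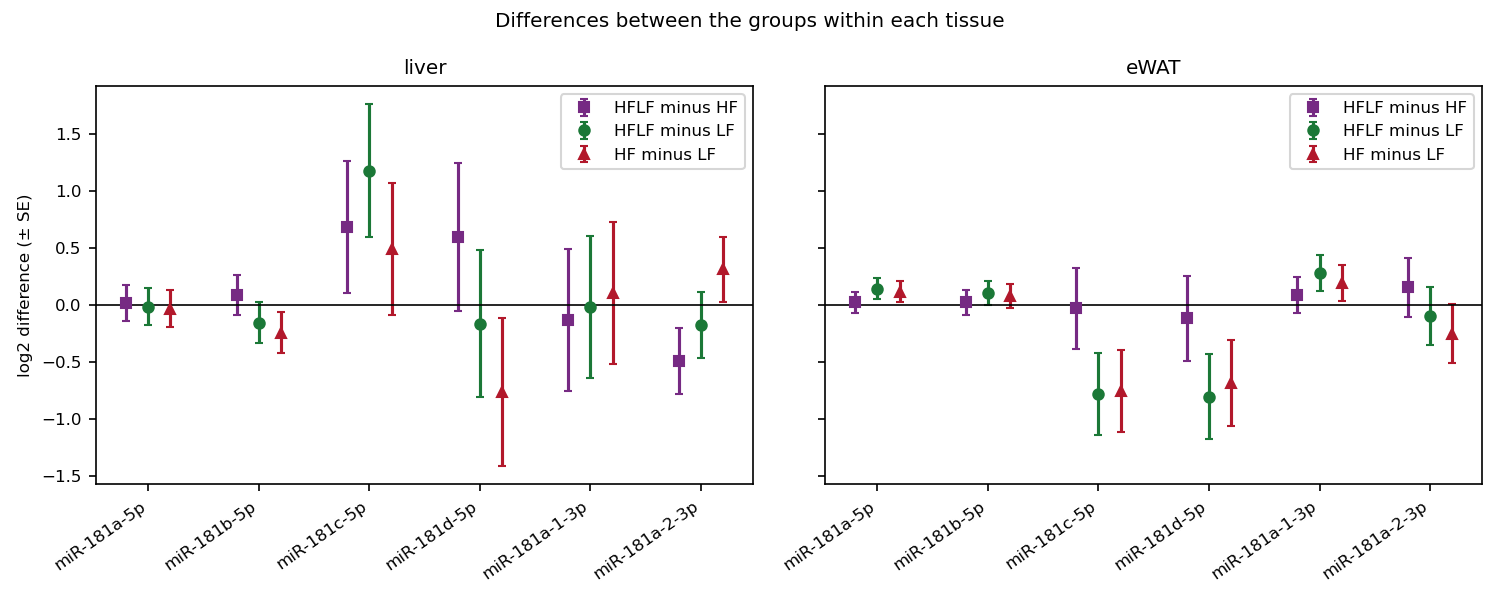
Log2 differences (± SE) between the groups for the 6 members within liver (left) and eWAT (right), for HFLF minus HF, HFLF minus LF and HF minus LF. miR-181a-5p lies between -0.03 and 0.14 throughout, and the values of miR-181c-5p and miR-181d-5p in eWAT rest on LF replicate 1.

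No member was called in the interaction of tissue and group, the liver difference minus the eWAT difference. Over all 681 miRNAs edgeR called 13 for HFLF minus LF (1.91%, with 1.62% higher and 0.294% lower) and 17 for HF minus LF (2.5%, with 1.17% higher and 1.32% lower). At an unadjusted p under 0.05 there were 80 and 89. DESeq2 called 21 and 29 and limma-voom 0 and 0, none of them a member. The value farthest from 0 was that of miR-181c-5p, 1.93 ± 0.73 for HFLF minus LF (unadjusted p = 0.0124, adjusted p = 0.201, edgeR), and 0.81 (adjusted p = 0.502) without the 4 libraries set apart. For miR-181a-5p it was -0.09 ± 0.21 for HFLF minus LF and -0.19 ± 0.21 for HF minus LF.

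Across libraries, 3 pairs of members moved together or apart. Log2 CPM of miR-181a-5p and miR-181b-5p, made from neighbouring hairpins, correlated in liver (Pearson's r = 0.746, Spearman's rho = 0.732, adjusted permutation p = 0.00263 and 0.0088 over 30 pairs, n = 18 libraries) and in eWAT (r = 0.817, rho = 0.769, adjusted permutation p = 9e-04 and 0.0088). Without the 2 libraries farthest from the median these were 0.696 and 0.702. miR-181c-5p and miR-181d-5p correlated in eWAT (r = 0.911, rho = 0.707, adjusted permutation p = 0.00263 and 0.0109), and r was 0.589 without LF replicates 1 and 4. In liver that pair had r = -0.07. miR-181a-5p, which both miR-181a hairpins give, and miR-181a-1-3p, which only Mir181a-1 gives, ran against each other in liver (r = -0.76, rho = -0.73, adjusted permutation p = 9e-04 and 0.0088). There r was -0.58 without the 2 libraries farthest from the median, -0.71 without LF replicate 4 and HF replicate 6 and -0.79 on deviations from the group means. In eWAT the same arms had r = 0.49 (adjusted permutation p = 0.138). All levels of a library share its TMM factor, and miR-181a-1-3p rests on 0 to 78 counts per liver library.

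The miRNAs most like each member by Pearson's r over the 18 libraries of a tissue were sought among 470 others in liver and 629 in eWAT. For miR-181a-5p they were miR-195a-5p (r = 0.751), miR-143-3p (0.725) and miR-429-3p (0.719) in liver, which had r of 0.631, 0.596 and 0.682 without the libraries set apart. In eWAT they were miR-23a-3p (0.708), miR-16-5p (0.698) and miR-3061-3p (0.695), and without those libraries 0.374, 0.405 and 0.562. For miR-181b-5p they were miR-199b-3p and miR-199a-3p (0.748 each) and miR-429-3p (0.724) in liver, with 0.697, 0.696 and 0.666 in the reduced set. The liver values of both arms thus moved less than those of miR-181a-5p in eWAT. In eWAT those of miR-181b-5p were miR-23a-3p (0.705), miR-203-3p (0.699) and miR-378b (0.677), and r came to 0.058, 0.436 and 0.327 in the reduced set.

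The chromosome 8 pair and miR-181a-1-3p in liver had the highest r, and each of these was lower without the libraries set apart. For miR-181c-5p the miRNAs were miR-542-3p (0.937), miR-3068-3p (0.936) and miR-125b-2-3p (0.932) in liver, with 0.536, 0.45 and 0.717 without those libraries. In eWAT they were miR-92b-3p (0.895), miR-652-3p (0.887) and miR-340-5p (0.871), with 0.205, -0.107 and 0.541. For miR-181d-5p they were miR-195a-3p (0.943), miR-129-5p (0.924) and miR-152-5p (0.88) in liver, with 0.046, 0.345 and 0.366. In eWAT they were the same 3 as for miR-181c-5p, miR-652-3p (0.89), miR-92b-3p (0.86) and miR-340-5p (0.822), with 0.393, 0.268 and 0.493. For miR-181a-1-3p in liver they were miR-664-5p (0.931), miR-106b-3p (0.913) and miR-191-3p (0.905), with 0.549, 0.264 and 0.257.

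The remaining values moved less. For miR-181a-1-3p in eWAT they were miR-145b (0.728), miR-708-3p (0.579) and miR-351-5p (0.569), with 0.783, 0.587 and 0.599 without the libraries set apart. For miR-181a-2-3p they were miR-18a-3p (0.697), miR-378d (0.684) and miR-6978-3p (0.663) in liver, with 0.536, 0.719 and 0.451. In eWAT they were miR-26a-2-3p (0.655), miR-511-5p (0.652) and miR-125b-5p (0.639), with 0.688, 0.554 and 0.593. They were picked as the highest of many, so the values describe these libraries only.

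The 4 remaining arms of the 6 hairpins had low counts. miR-181b-1-3p averaged 0.735 ± 0.596 TMM-scaled CPM in liver and 2.11 ± 0.87 in eWAT (SD, n = 18), and miR-181d-3p had 0 to 24 counts in any library. miR-181b-2-3p had a median of 0.522 in liver and 0.314 in eWAT, with at most 13.3 in liver LF replicate 4, 2.52 in the other liver libraries and 2.21 in eWAT. Of the 4, 3 passed the filter over both tissues and in eWAT and 2 in liver, and none was called in any comparison. miR-181c-3p, the arm that shares its seed with miR-181a-1-3p, had 0 to 118 counts per liver library and 22 to 578 per eWAT library. miR-181b-2-3p reached 65 counts in liver LF replicate 4, the library with 0 counts of miR-181c-5p, miR-181a-1-3p and miR-181c-3p, and at most 22 in the other liver libraries.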

How the data were processed

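The submitters' processing notes name cutadapt, Bowtie and GRCm38.p6, without versions or settings. Total RNA went into the NEXTFLEX small RNA kit, per the labels' protocols. The authors deposited raw read counts for each mature miRNA of each hairpin (2118 lines), CPM columns of the same table, which were not used here, and log2 values per tissue. Of the members, the log2 tables list only miR-181a-5p and miR-181b-5p, and the levels used here differed from them by at most 0.0907 after centring. Column names give the groups by a letter only, and C, H and R were taken to mean LF, HF and HFLF.

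The highest-total line of each mature miRNA was used, 1966 in all. Counts were fitted in R 4.3.3 with edgeR 4.0.16 (TMM factors, filterByExpr with a minimum count of 10, robust quasi-likelihood F test, Benjamini-Hochberg adjusted p under 0.05), for each tissue with its 18 libraries in 3 groups and over all 36 in 6 groups, after tests on simulated data. SE is the log2 difference over the root of F. Correlations used log2 CPM with a prior count of 2 and 100000 resamples. Shares and ratios were tested by 2-sided exact permutation. DESeq2 1.42.0, limma 3.58.1, other scalings, no filter, summed lines, a replicate block and left-out libraries were the alternatives. Intervals and floors (3 counts) cover counting error only. Hairpin positions are RefSeq's, and overlaps come from the GENCODE annotation of GRCm38. All 6 members are named, with the 3 most correlated miRNAs of each. Members and lists were chosen with earlier results of these data known. Numbers were not used as pairs, and the labels do not state that equal numbers mark one mouse. Correlations of same-numbered libraries averaged -0.052 to 0.051 per comparison, with single pairs from -0.288 to 0.26. With 6 pairs per comparison these values cannot settle if numbers mark pairs.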

Additional observations from a re-analysis of the deposited data

Results flagged for a closer look

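In 11 of 78 sample groups looked at, 1 library stood far from the other 5 by the gap to its nearest neighbour. Chance gives about 1 in 20 for independent groups. These are not independent, since levels, shares and summed arms reuse the same counts and 1 library can recur. Whether the number exceeds chance therefore cannot be read from it and was not tested. Most concern the scarce chromosome 8 arms. In eWAT LF replicate 1, miR-181c-5p had 102.9 TMM-scaled CPM, while the other LF libraries had 15.05 to 30.22, and miR-181d-5p had 85.33, against 13.5 to 23.36. Its shares of the 4 5p arms were 4.377% for miR-181c-5p (others 0.6137 to 1.693%) and 3.63% for miR-181d-5p (others 0.5903 to 1.159%).

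In liver LF replicate 4, miR-181d-5p had 27.61 TMM-scaled CPM, while the other LF libraries had 6.126 to 12.65, and a share of 3.734%, against 1.024 to 1.884%. In eWAT HFLF replicate 4 it had 25.07, against 12.17 to 16.87, and a share of 0.9825%, against 0.5103 to 0.6573%. In eWAT HF replicate 4, miR-181a-1-3p had 24.62, against 13.76 to 17.27.

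In liver LF replicate 2, miR-181a-5p had 344.1 TMM-scaled CPM, against 533.6 to 604.0 in the other LF libraries, and the summed 5p arms had 432.7, against 650.4 to 739.4. The same library had the highest share of miR-181a-1-3p in liver, 41.4%.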

How the results depend on the processing

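The lower liver level of miR-181a-5p, miR-181b-5p and miR-181a-1-3p kept its direction and its call in all 3 groups under each alternative run, and so did the higher 3p ratio and the lower miR-181a-1-3p share of liver in HFLF and HF. Values that turned sign belong, apart from miR-181a-2-3p between the tissues, to differences that were never called. They are log2 differences unless said otherwise, and the cause of each change was not tested.

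With plain CPM, liver HFLF minus LF was 0.19 for miR-181a-5p, 0.042 for miR-181b-5p, 0.11 for miR-181d-5p, 0.097 for miR-181a-1-3p and 0.058 for miR-181a-2-3p. Liver HF minus LF of miR-181a-5p was 0.064, and eWAT HFLF minus HF was -0.018 for miR-181a-5p and -0.022 for miR-181b-5p. Liver minus eWAT of miR-181a-2-3p was -0.87 in HFLF, -0.36 in HF and -1.06 in LF, and the HFLF interaction of miR-181a-5p was 0.094. With totals that leave out miR-122-5p and miR-143-3p, miR-181a-2-3p was -0.14 in HFLF and -0.22 in LF. With RLE factors the HF interaction of miR-181d-5p was -0.046 and the HFLF interaction of miR-181a-2-3p -0.090.

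Without a filter, miR-181a-5p in liver was -0.0085 for HFLF minus HF, 0.031 for HFLF minus LF and 0.040 for HF minus LF, and the HF interaction count was 6. DESeq2 called 31 miRNAs for HFLF minus LF and 16 for HF minus LF in eWAT, and 21 and 29 in the HFLF and HF interactions, with -0.083 for miR-181a-2-3p in the HFLF interaction and -0.046 for miR-181d-5p in the HF interaction. limma-voom called 0 in both interactions. Its liver HFLF minus LF was 0.021 for miR-181a-5p, 0.14 for miR-181d-5p and 0.54 for miR-181a-1-3p. Its interactions were 0.40 (HFLF) and 0.51 (HF) for miR-181a-1-3p and -1.33 (HF) for miR-181d-5p. With the 2 groups alone, liver HFLF minus HF of miR-181a-5p was -0.0056. With the lines of a miRNA summed, the share of miR-181a-5p in HF, liver minus eWAT, was 0.34 percentage points.

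Same-numbered libraries had correlations over 0.1 in 0 to 2 of 6 pairs, and 1 to 3 of 6 correlated best with their own number. With the replicate block, both interactions had 0 calls, liver HFLF minus LF was 0.011 for miR-181a-5p and 0.16 for miR-181a-1-3p, and the interactions were 0.039 (HFLF) and 0.17 (HF) for miR-181a-1-3p and -0.42 (HF) for miR-181d-5p. It changed no other count of calls by over 1.5 times.

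Without liver LF replicate 4 and HF replicate 6, liver HFLF minus LF was 0.11 for miR-181a-5p, 0.38 for miR-181d-5p and 0.13 for miR-181a-2-3p, and HF minus LF was 0.058 for miR-181a-5p, 0.037 for miR-181d-5p and -0.089 for miR-181a-1-3p. Without eWAT LF replicates 1 and 4, eWAT HFLF minus LF was -0.024 for miR-181b-5p, 0.065 for miR-181c-5p and 0.022 for miR-181a-2-3p, and HF minus LF was -0.027 for miR-181b-5p, 0.11 for miR-181c-5p and 0.084 for miR-181d-5p. Without all 4, the interaction counts were 0 (HFLF) and 1 (HF), with 0.042 for miR-181a-5p (HFLF) and -0.079 for miR-181d-5p (HF). In LF the share of miR-181a-1-3p, liver minus eWAT, was then -23.1 points and that of miR-181c-5p 0.64 points. The log2 3p ratio was -0.51 for HFLF minus HF and 0.42 for HF minus LF in liver, and 0.072 for HFLF minus LF in eWAT.

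With 1 library left out at a time, values ran as follows. Liver HFLF minus HF of miR-181a-5p ran from -0.041 to 0.067. Liver HFLF minus LF ran from -0.096 to 0.11 for miR-181a-5p, -0.33 to 0.38 for miR-181d-5p, -0.28 to 0.42 for miR-181a-1-3p and -0.29 to 0.13 for miR-181a-2-3p. Liver HF minus LF ran from -0.11 to 0.077 for miR-181a-5p and -0.17 to 0.55 for miR-181a-1-3p. eWAT HFLF minus HF ran from -0.012 to 0.042 for miR-181a-5p, -0.019 to 0.038 for miR-181b-5p and -0.064 to 0.25 for miR-181a-2-3p. eWAT HFLF minus LF had 0 to 17 calls (12, 15 and 17 without LF replicates 2, 5 and 6), and ran from -0.013 to 0.14 for miR-181b-5p and -0.34 to 0.014 for miR-181a-2-3p. eWAT HF minus LF of miR-181b-5p ran from -0.041 to 0.12. The HFLF interaction had 5 to 17 calls and ran from -0.14 to 0.018 for miR-181a-5p, -0.51 to 0.15 for miR-181a-1-3p and -0.080 to 0.27 for miR-181a-2-3p. The HF interaction had 4 to 20 calls and ran from -0.24 to 0.0058 for miR-181a-5p, -0.52 to 0.44 for miR-181d-5p and -0.37 to 0.35 for miR-181a-1-3p. The share of miR-181a-1-3p ran from -4.33 to 3.96 points for HFLF minus LF and -7.36 to 0.93 for HF minus LF in liver, from -3.55 to 3.55 for HFLF minus HF in eWAT, and from -29.0 to -20.7 for liver minus eWAT in LF. The share of miR-181c-5p in LF, liver minus eWAT, ran from -0.54 to 0.22 points. The 3p ratio in liver ran from -0.62 to -0.35 for HFLF minus HF, -0.27 to 0.0041 for HFLF minus LF and 0.28 to 0.41 for HF minus LF, and in eWAT from -0.18 to 0.023 for HFLF minus LF.

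Low counts limit the scarce arms most: miR-181a-1-3p had 0 to 78 counts per liver library. The zeros did not follow library totals. Liver HF replicate 6, with 0 counts of miR-181d-5p, had the highest total, 18832842. Liver LF replicate 4, with 0 counts of miR-181c-5p, had 8496919. Liver LF replicate 3 had a lower total, 7866583, and 61 counts of miR-181c-5p. Libraries have no molecular identifiers, group means rest on 6 libraries, and the 2 lines of miR-181b-5p differed by 5.68%.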
